A study of Mus musculus with 34 samples.

Results

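Of 29124 chromatin regions that were open in all 4 CatVII Rxra WT libraries, made from hair follicle stem cells (HFSCs) of mouse skin, 3308 (11.4%) lay more than 100 kb from every protein-coding transcription start. They are called far regions here. To find them, called peaks on chromosomes 1 to 19 of those 4 ATAC-seq libraries were merged wherever they shared at least 1 bp, which gave 111458 regions, and the regions with a peak in all 4 lists and a midpoint beyond 100 kb were taken. The members were thus chosen by measured values, the called peaks of those 4 libraries, whose presence is given by the choice, and only the other 30 libraries are compared. The comparisons are with 15715 nearer distal regions, which lay 1 to 100 kb from a start, and 10101 promoter regions, which lay within 1 kb of one.

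The series holds 34 libraries in 11 groups. In vivo, HFSCs were sorted from skin of mice with a conditional deletion of Rxra in late catagen (CatVII Rxra cKO, n = 3), from mice with intact Rxra at that stage (CatVII Rxra WT, n = 4), and from wild type mice in late catagen (CatVII wild type, n = 6) or full anagen (AnaVI wild type, n = 2). In culture, Rxra WT HFSCs received corpses treated with bromoenol lactone (BEL, which inhibits the calcium-independent phospholipase A2 of dying cells, n = 4), untreated corpses (n = 4), a mixture of retinoic acid and the lipids arachidonic acid and lysophosphatidylcholine (AA+LPC+RA, n = 2) or medium (n = 2). Rxra cKO HFSCs received untreated corpses (n = 3), AA+LPC+RA (n = 2) or medium (n = 2). Corpses were HFSCs killed with cisplatin. The 15 cultures given corpses or AA+LPC+RA are called stimulated cultures. The deletion was driven by Sox9-creER, in mice that also carried an R26-YFP reporter. For the skin libraries it was induced in the mice with tamoxifen. In the cultured lines the recombinase was activated only in culture, with 4-hydroxytamoxifen, and YFP+ cells were then sorted. From skin, Rxra cells were sorted as YFP+ ITGA6+ and wild type cells as CD34-high ITGA6+. Cells positive for Sca1 or for CD31, CD117, CD140a or CD45 had been gated out in the wild type sort. The study's methods describe the Rxra WT mice in more than one way (Rxra+/+ with Sox9-creER, or littermates without the recombinase or with 1 floxed allele), and ages are not given in the labels. The cultures were HFSC lines grown on inactivated fibroblast feeders and were barcoded as a batch of their own, so culture and batch cannot be told apart. The study calls its replicates biological but does not tie each library to an animal or culture line, so a p-value here gauges the spread among these libraries alone.

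ATAC-seq tags DNA that a transposase can reach. Open sites far from promoters are mostly enhancers, to which transcription factors bind, or sites of CTCF, which anchors chromatin loops. Long stretches without protein-coding genes often flank regulators of development, and their enhancers can act on a promoter across such a stretch, as is known for Sox9, the transcription factor that specifies and maintains HFSCs.

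Reference sequences of 8 far regions are given, each a 300-base window around the best-ranked summit, read from the plus strand of GRCm39. Capitals mark matches to the motifs counted further on, on either strand: TGANTCA for AP-1 (Fos and Jun factors), AACAAAG or AACAATG for SOX factors, TAATTA for homeodomain factors, TTGCNNAA for C/EBP, AACNGGTT for grainyhead-like factors (GRHL), and for CTCF the letters CCA, any 2 bases, AG, any 2 bases and GGC. Over the windows of all 29124 regions, 23.9% held the AP-1 motif, 11.5% SOX, 6.83% homeodomain, 12.9% C/EBP, 4.06% GRHL and 4.97% CTCF. The first 2 are the best-ranked far regions (by −log10 p in the 4 lists) nearest to Sox9, 529036 bp upstream of its start, and to Nfib, 222427 bp beyond its start, both intergenic. They are shown because both had a peak in every culture given corpses and differ in motifs.
Sox9, chr11:112143919-112144218: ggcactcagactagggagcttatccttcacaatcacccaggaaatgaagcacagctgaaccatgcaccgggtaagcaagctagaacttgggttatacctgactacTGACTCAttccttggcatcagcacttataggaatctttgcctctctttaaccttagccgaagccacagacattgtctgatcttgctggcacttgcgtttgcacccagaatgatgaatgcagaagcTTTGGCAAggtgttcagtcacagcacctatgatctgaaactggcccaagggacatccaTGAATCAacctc
Nfib, chr4:82201772-82202071: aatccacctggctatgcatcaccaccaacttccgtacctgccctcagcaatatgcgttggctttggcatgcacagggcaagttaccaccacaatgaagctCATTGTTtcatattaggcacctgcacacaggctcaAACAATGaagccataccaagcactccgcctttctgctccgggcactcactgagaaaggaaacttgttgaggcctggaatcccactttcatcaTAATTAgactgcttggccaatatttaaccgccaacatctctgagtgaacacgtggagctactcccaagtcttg
The next pairs were neighbours with opposite presence in culture, beyond Lrig1, which encodes a marker of stem cells in the upper follicle, and Cd47, which encodes a signal that protects cells from being engulfed. They are shown because in each pair a region with an AP-1 motif and presence in culture stood beside a region without either. In each pair the region with no peak in any stimulated culture comes first. Those of Lrig1 were intergenic and those of Cd47 lay in introns of the non-coding genes Gm6936 and Gm5486.
Lrig1, chr6:94822846-94823145: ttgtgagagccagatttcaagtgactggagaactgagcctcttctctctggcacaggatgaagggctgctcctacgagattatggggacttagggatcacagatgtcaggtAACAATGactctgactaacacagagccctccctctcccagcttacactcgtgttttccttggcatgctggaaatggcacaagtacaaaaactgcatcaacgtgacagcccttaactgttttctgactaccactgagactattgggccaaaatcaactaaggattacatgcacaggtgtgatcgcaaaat
Lrig1, chr6:94806280-94806579: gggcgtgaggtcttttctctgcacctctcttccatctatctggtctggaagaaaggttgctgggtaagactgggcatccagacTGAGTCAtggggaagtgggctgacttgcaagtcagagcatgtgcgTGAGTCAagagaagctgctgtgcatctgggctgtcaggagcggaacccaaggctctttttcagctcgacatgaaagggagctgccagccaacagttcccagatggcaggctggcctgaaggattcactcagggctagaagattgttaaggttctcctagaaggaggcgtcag
Cd47, chr16:49804919-49805218: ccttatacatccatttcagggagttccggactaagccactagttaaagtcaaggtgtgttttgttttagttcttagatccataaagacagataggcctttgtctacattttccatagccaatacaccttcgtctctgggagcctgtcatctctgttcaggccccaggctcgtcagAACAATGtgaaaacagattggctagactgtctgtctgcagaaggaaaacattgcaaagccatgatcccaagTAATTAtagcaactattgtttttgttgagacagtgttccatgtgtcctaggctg
Cd47, chr16:49790967-49791266: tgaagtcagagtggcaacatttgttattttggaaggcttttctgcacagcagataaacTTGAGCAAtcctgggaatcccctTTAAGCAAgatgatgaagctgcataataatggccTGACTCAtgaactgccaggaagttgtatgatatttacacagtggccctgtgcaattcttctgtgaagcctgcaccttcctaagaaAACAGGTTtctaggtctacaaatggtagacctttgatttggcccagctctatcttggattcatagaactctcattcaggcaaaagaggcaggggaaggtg
The last are the best-ranked of the 5 farthest regions with unique sequence, 1745294 bp upstream of Tyrp1 (a gene of melanin synthesis), and the best-ranked with a CTCF motif and no repeated word, in an exon of the non-coding gene Gm1968 147699 bp upstream of Hes1 (a repressor downstream of Notch).
Tyrp1, chr4:79006947-79007246: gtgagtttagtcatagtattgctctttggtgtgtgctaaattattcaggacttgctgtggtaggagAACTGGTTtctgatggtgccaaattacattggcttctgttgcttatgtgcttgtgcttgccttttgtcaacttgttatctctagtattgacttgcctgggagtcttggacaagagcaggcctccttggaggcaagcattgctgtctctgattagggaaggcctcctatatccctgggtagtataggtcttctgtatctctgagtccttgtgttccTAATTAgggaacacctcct
Hes1, chr16:29734304-29734603: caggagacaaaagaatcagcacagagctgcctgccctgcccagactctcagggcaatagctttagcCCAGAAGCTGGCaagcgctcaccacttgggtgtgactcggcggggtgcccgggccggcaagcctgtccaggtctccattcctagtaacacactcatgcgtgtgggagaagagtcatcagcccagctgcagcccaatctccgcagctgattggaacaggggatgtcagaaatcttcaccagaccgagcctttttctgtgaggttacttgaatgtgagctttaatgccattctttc
The members of the Lrig1 pair lay 16.8 kb apart and those of the Cd47 pair 14.3 kb apart. In both pairs the region with AP-1 motifs had a peak in each of the 11 libraries given corpses (4 with BEL, 3 of Rxra cKO, 4 of Rxra WT), and the region with a SOX motif and no AP-1 motif had none there. These windows were chosen with their values in view, and other regions went the other way. Another Lrig1 region, chr6:94857933-94858586, held no AP-1 motif and had a peak in each of the 11 libraries. The far region near Postn held an AP-1 motif and had no peak in any stimulated culture.

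The far regions lay a median of 182536 bp from the nearest protein-coding start. For 1456 of them (44%) the distance was over 200 kb, for 275 (8.31%) over 500 kb and for 46 over 1 Mb. The farthest was 1907584 bp from Cntnap5b, which encodes a neuronal adhesion protein, and was found in 23 of the other 30 libraries. The next were 1827820 bp from Tmeff2 and 1780566 bp from Cntnap5a, each found in 8 of 30. The windows near Cntnap5b and Tmeff2 were repeated sequence, with a median of 9661 and 9236 other copies of their 25-base words in the genome, and that near Cntnap5a was unique. At the limit itself, chr5:13741277-13741921 lay 100034 bp from Speer3 and was counted, and chr13:53726802-53727359 lay 99970 bp from Msx2 and was not.

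"Gene desert" held for protein-coding genes alone. With the non-coding genes of the annotation counted, the median distance to a start was 11780 bp, 476 far regions (14.4%) lay within 1 kb of a start, and 133 (4.02%) were over 100 kb from every start. By position, 1330 (40.2%) were intergenic, against 25% of nearer distal regions. Another 1001 (30.3%) lay in introns of non-coding genes, against 14.6% of nearer distal regions, and 705 (21.3%) in introns of protein-coding genes, against 47.1%. The far region nearest Jun, which encodes an AP-1 subunit, lay 109400 bp upstream in an exon of the antisense gene Junos, 14 bp from its start. Far and nearer distal regions were of similar width (median 700 and 676 bp) and rank in the 4 lists (mean percentile 63.1 ± 18.7 and 65.3 ± 17.7, SD over regions), and far regions held less GC (47.4% ± 5.68 and 50.5% ± 6.36). Of all merged regions of the 4 lists, 16.9% of those beyond 100 kb had a peak in all 4, and 28.1% of those within it.

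The far regions crowded at a minority of genes. The nearest genes numbered 1115, of which 463 had 1 far region and 50 had 10 or more. Sox9 had the most, 37, at 120338 to 824100 bp from its start. It was followed by Gata3 with 29 (a factor of the inner root sheath lineage), Efnb2 with 26 (an ephrin ligand), Tbl1xr1 with 23 (a corepressor subunit), Actl7b with 22 (an actin-like protein), Maf with 21 (a bZIP transcription factor), Flrt3 with 19 (an adhesion protein), and Efna5, Nfib and Zfp608 with 18 each, of which Nfib encodes a factor that maintains HFSC identity. The 26 regions nearest Alkbh8 were of another kind and are described with the repeats. Counted by the gap between neighbouring protein-coding starts, 896 gaps held a far region and 72 held 10 or more, which together made up 1084 (32.8%) of the set. The fullest were Slc10a2 to Efnb2 (40 regions in 3.53 Mb), Klf4 to Actl7b (34 in 1.21 Mb), Celf2 to Gata3 (30 in 2.48 Mb), and Mpdz to Nfib, Sox9 to Slc39a11 and Rad51b to Zfp36l1 (29 each). Density differed among them, with 37.2 regions per Mb between Sox9 and Slc39a11 and 11.3 per Mb between Slc10a2 and Efnb2.

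**Figure D1:**
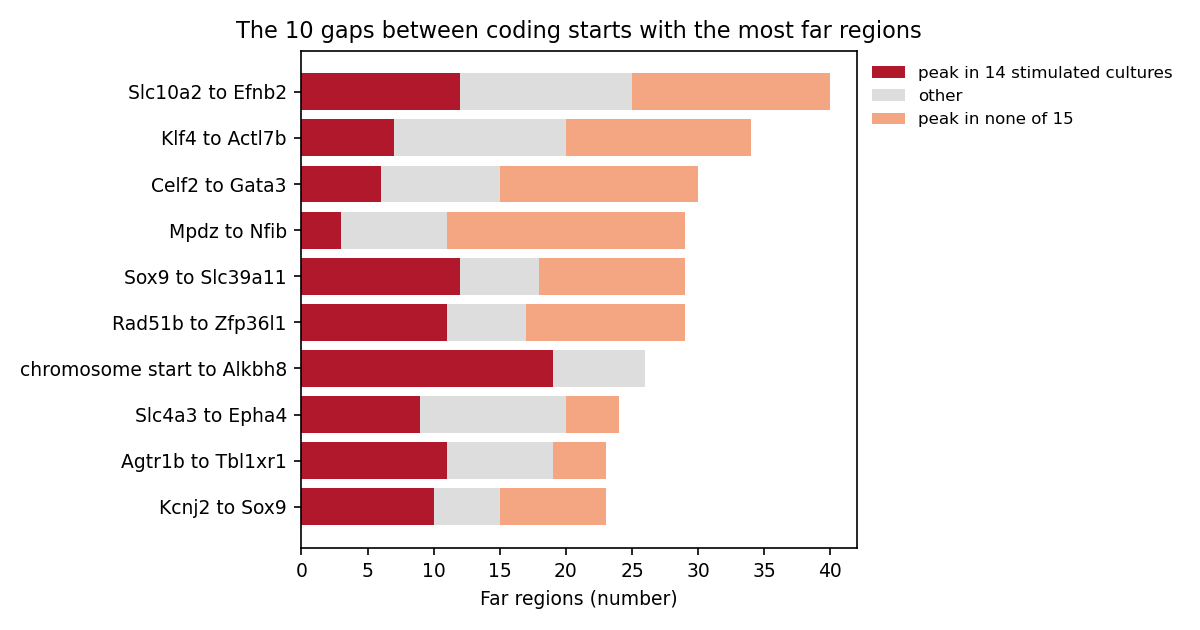
Far regions in the 10 gaps between neighbouring protein-coding starts that held the most of them; bars give the number of regions, split into those with a peak in 14 stimulated cultures (red), in none of 15 (light orange) and the rest (grey). Between Mpdz and Nfib 3 of 29 had a peak in all 14 and 18 in none, whereas before Alkbh8 on chromosome 9 it was 19 and 0 of 26.

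Far regions lay next to transcription factor genes more often than nearer distal regions did, as a description without a test. Genes on a list of 36 HFSC transcription factors were nearest to 179 far regions (5.41%), against 1.40% of nearer distal regions, and 22 of the 36 had at least 1. Beside Sox9, Gata3 and Nfib, these included Foxp1 (11), Klf5 (9), Runx1 (7), Trp63 (6, encoding the p63 factor of stratified epithelia), Sox4 (5) and Tcf7l2 (5, a mediator of WNT signals). Zfp36l1 (17) also stood on the list, though its product is an RNA-binding protein and not a transcription factor. For 149 developmental transcription factors the shares were 7.68% and 1.53%. For 124 signalling ligands, receptors and inhibitors they were 5.53% and 1.60%, and for 104 neuronal and synaptic genes 2.69% and 0.293%. Of 48 dead-cell clearance genes, 4 were nearest to a far region (6 regions, 0.181%, against 0.624% of nearer distal regions), and of 28 retinoid and nuclear receptor genes also 4 (7 regions, 0.212% against 0.318%). Among 20 HFSC surface and niche genes, 7 were (10 regions, 0.302% against 0.452%). Only a gene beside a long stretch without coding starts can be nearest to a far region. How much of all such sequence lies nearest to the listed genes was not counted. A nearest gene need not be the gene a region acts on.

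Depth differed widely. Libraries held 4144 to 129876 peaks, with fewest in medium and most in Rxra cKO corpse cultures, and the lists hold no read counts. Of 9 HFSC marker genes, 8 or 9 had a promoter peak in CatVII Rxra cKO and Rxra WT libraries, 1 to 9 in CatVII and 2 to 8 in AnaVI wild type, 4 to 8 in stimulated cultures and 0 or 1 in medium, so the marker check failed in medium. Marker promoters of melanocytes, fibroblasts, immune, endothelial and muscle cells had at most 5 of 8, 4 of 8, 2 of 8, 4 of 6 and 3 of 6 peaks in any library. Chromosomes 1 to 3 held 27.7 to 32.4% of peaks in CatVII wild type replicates 1 to 4, 29.4% in CatVII Rxra cKO replicate 1 and 26.2 to 40.8% in medium, against 20.2 to 26.3% elsewhere. Stored peak names carry a tag the labels do not give. It reads Phago in CatVII wild type replicates 1 to 3, CatVII Rxra cKO replicate 3, both AA+LPC+RA Rxra WT libraries, replicates 3 and 4 of the Rxra WT cultures with BEL-treated and with untreated corpses and replicate 3 of the Rxra cKO corpse cultures. AnaVI wild type libraries have no tag, and the rest read NonPhago. The names stored in CatVII Rxra cKO replicate 3 also give the mouse number of replicate 2, so these may not be separate mice. An age-like tag is shared by CatVII Rxra cKO replicates and CatVII Rxra WT replicate 1 and differs in CatVII Rxra WT replicates 2 to 4.

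The share of far regions with a peak varied widely among libraries from skin and was low in medium. A peak was called at 77.9, 71.0 and 94.1% of them in the CatVII Rxra cKO libraries. In CatVII wild type the 6 libraries gave 13.8% at the lowest, 25.1% at the median and 85.9% at the highest, and in AnaVI wild type 31.9 and 76.5%. The lowest and highest CatVII wild type libraries were also those with the fewest and most peaks on chromosomes 1 to 19, 8046 and 50452. In culture the shares were 52.8, 50, 54.2 and 57.9% with BEL-treated corpses, and 59.6, 48.9 and 59.8% in Rxra cKO and 47.1, 51.5, 59.2 and 58.8% in Rxra WT with untreated corpses. They were 48.0 and 44.6% in Rxra cKO and 54.4 and 11.7% in Rxra WT with AA+LPC+RA, and 4.47 and 2.57% in Rxra cKO and 3.84 and 3.81% in Rxra WT with medium. AA+LPC+RA Rxra WT replicate 3, at 11.7%, had 12705 peaks on chromosomes 1 to 19 against 87225 in replicate 1. A region open in fewer cells and one covered by fewer reads cannot be told apart in these lists.

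Within groups, a far region was often found in some replicates and not in others. A peak in every CatVII Rxra cKO library was found at 1894 far regions (57.3%, with 68.4% of all 29124 regions) and in none at 80 (2.42%, with 1.80% of all). In CatVII wild type it was every library at 228 (6.89%, with 13.6% of all) and none at 427 (12.9%, with 10.1% of all), and in AnaVI wild type every library at 1045 (31.6%, with 31% of all) and none at 767 (23.2%, with 18.9% of all). CatVII Rxra cKO and CatVII wild type libraries thus shared a smaller part of the far regions than of all regions, which include promoters, and AnaVI libraries about the same part. Of nearer distal regions, every library had a peak at 59.6% in CatVII Rxra cKO, 5.17% in CatVII wild type and 26% in AnaVI wild type. Against these, the shared part of far regions was smaller in CatVII Rxra cKO and larger in both wild type groups. The part with no peak in any library was smaller for far than for nearer distal regions in each of these groups.

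In culture the far regions were missed more often than regions at large, which include promoters. BEL corpse libraries all had a peak at 1574 (47.6%, with 72.4% of all) and none had at 1332 (40.3%, with 18.8% of all). With untreated corpses it was every library at 1570 in Rxra cKO (47.5%, with 70.0% of all) and at 1463 in Rxra WT (44.2%, with 65.9% of all), and none at 1191 in Rxra cKO (36.0%, with 17.6% of all) and at 1241 in Rxra WT (37.5%, with 18% of all). With AA+LPC+RA both libraries had a peak at 1408 in Rxra cKO (42.6%, with 66.7% of all) and at 383 in Rxra WT (11.6%, with 26.9% of all), and neither at 1653 in Rxra cKO (50%, with 26.9% of all) and at 1505 in Rxra WT (45.5%, with 23.0% of all). In medium both libraries had a peak at 68 in Rxra cKO (2.06%, with 3.69% of all) and at 69 in Rxra WT (2.09%, with 2.25% of all), and neither at 3143 in Rxra cKO (95%, with 86.5% of all) and at 3124 in Rxra WT (94.4%, with 91.5% of all). Of nearer distal regions, 22.9 to 36.3% had no peak in any library of a stimulated group. In medium it was 95.4% of them in Rxra cKO and 96.1% in Rxra WT. Far regions were thus not missed more often than nearer distal ones in medium.

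Per region, the median number of the other 30 libraries with a peak was 14 for far and 17.0 for nearer distal regions. A peak in 29 or more of them was called at 50 far regions (1.51%), with 2.30% of all 29124 regions, and at 36 in all 30, with 1.02% of all regions. A peak in none of them was found at 12 of 3308 far regions and 96 of 15715 nearer distal regions.

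**Figure D2:**
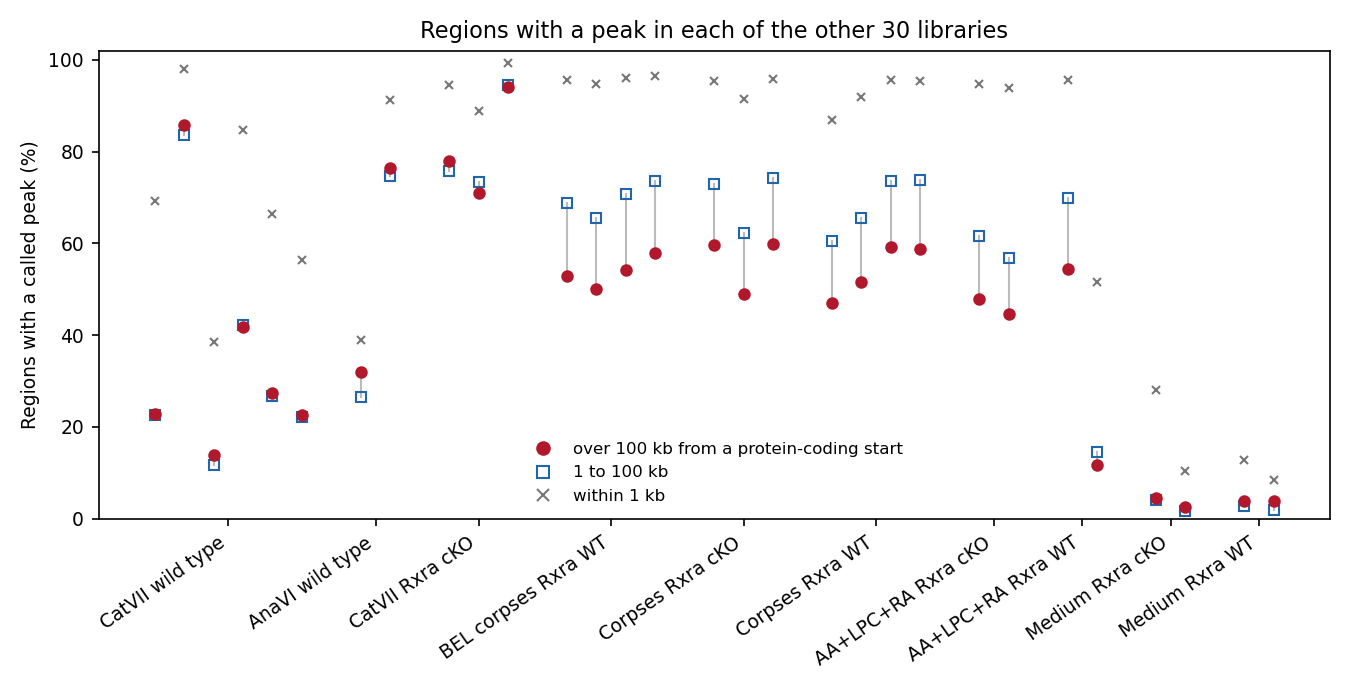
Percent of far regions (red circles), nearer distal regions (blue squares) and promoter regions (crosses) with a called peak in each of the 30 libraries outside the choice, with a line between the far and nearer distal value of a library. In libraries sorted from skin circles and squares lie within 5.29 points of each other, and in the 15 stimulated cultures every circle lies below its square.

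In the stimulated cultures, far regions were found less often than nearer distal ones. The share of far regions minus that of nearer distal regions averaged −13.8 ± 3.26 percentage points (SD, n = 15) and was below 0 in 15 of 15 libraries, with −16.5 at the lowest, −14.4 at the median and −2.78 at the highest, the last in AA+LPC+RA Rxra WT replicate 3. The exact sign-flip permutation test over the 15 libraries gave p = 6.10e-05, the smallest it can give (1.22e-04 after Benjamini-Hochberg adjustment over 2 tests, two-sided). By group the difference was −16 ± 0.359 with BEL-treated corpses (n = 4), −13.7 ± 0.636 in Rxra cKO with corpses (n = 3), −14.3 ± 0.635 in Rxra WT with corpses (n = 4) and −13.0 ± 0.973 in Rxra cKO with AA+LPC+RA (n = 2). In CatVII wild type it was 0.882 ± 1.01 (n = 6, above 0 in 5 of 6, exact sign-flip p = 0.0938, adjusted 0.0938), and there its sign turned without regions of repeated sequence (−0.318). In AnaVI wild type it was 5.29 and 1.77, and in CatVII Rxra cKO 2.03, −2.37 and −0.378. The size in culture depended on how many peaks were counted. With every library cut to the 12705 best-ranked peaks the mean difference was −3.37, at the same p of the exact permutation test. It was −11.8 against nearer distal regions matched on rank in the 4 lists and −11.3 against regions matched on GC. Promoter regions were found at 95.8% ± 0.771 with BEL-treated corpses and at 92.4% ± 4.13 with untreated corpses in Rxra WT (SD, n = 4 each).

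The share was lower at each step of distance in most stimulated cultures and not in skin. With untreated corpses in Rxra WT, a peak was called at 71.7% of regions 1 to 10 kb from a start, 68.6% at 10 to 50 kb, 62.0% at 50 to 100 kb, 56.6% at 100 to 200 kb, 51.3% at 200 to 500 kb and 49.5% beyond 500 kb (means of 4 libraries). The Rxra cKO corpse cultures gave 72.6, 69.9, 64.5, 58.1, 54.0 and 52.0% over the same classes. In CatVII Rxra cKO skin the values were 80.8, 81.6, 81.3, 81.3, 81.5 and 77.1%, and in CatVII wild type 33, 35.2, 37.0, 34.9, 36.5 and 38.1%. The limit of 100 kb thus stood within a gradual decline in culture and not at a step.

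**Figure D3:**
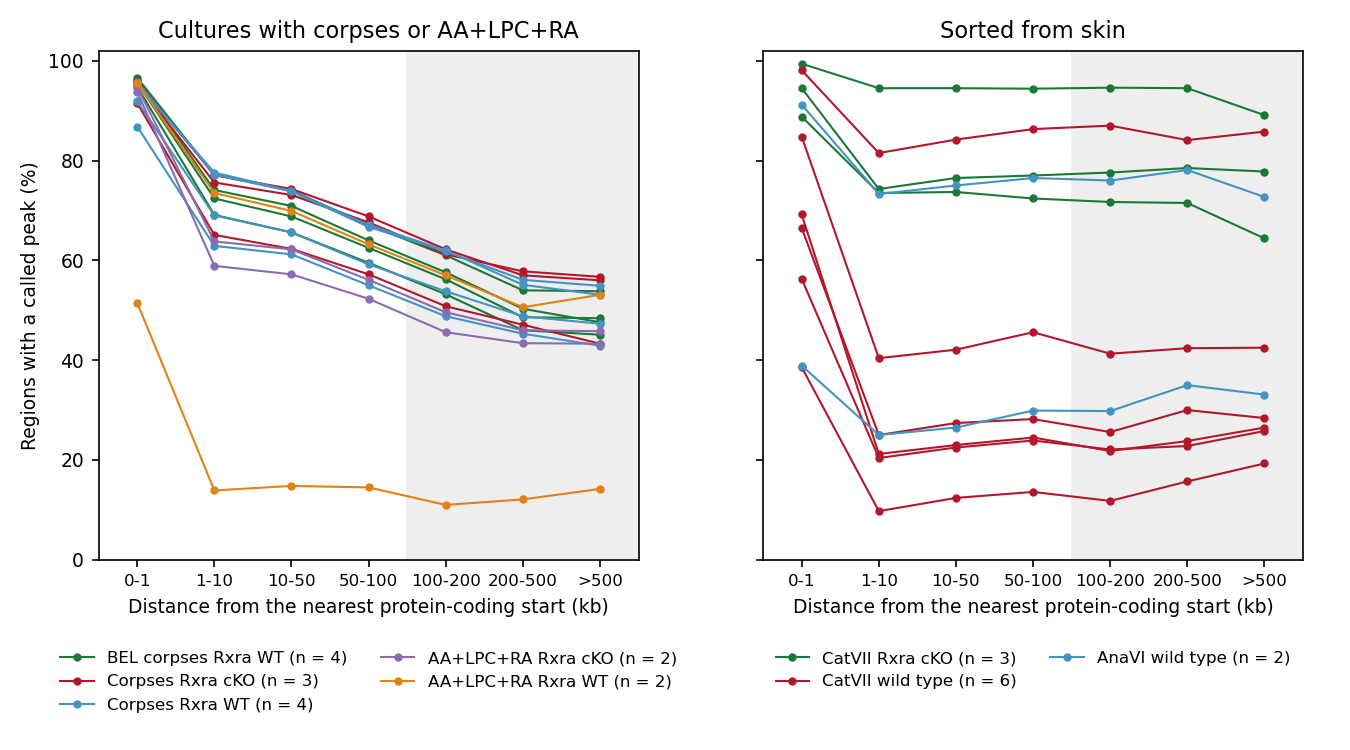
Percent of regions with a peak in all 4 CatVII Rxra WT lists at which each other library had a peak, by distance from the nearest protein-coding start in kb (1 line per library, medium left out; grey marks the far regions). Lines of 14 stimulated cultures (left) descend up to 500 kb, the shallow AA+LPC+RA Rxra WT library at the bottom does not, and lines of skin libraries (right) run nearly level from 1 to 500 kb.

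Many far regions were found either in nearly every stimulated culture or in none. Of the 3308 far regions, 1145 (34.6%) had a peak in all 14 stimulated cultures other than the shallow AA+LPC+RA Rxra WT replicate 3, a set fixed after its depth was seen, against 47.6% of nearer distal regions and 58.7% of all 29124 regions. In all 15 it was 346 (10.5%, with 26.1% of all regions). A further 1039 (31.4%) had no peak in any of the 15, against 18.3% of nearer distal regions and 14.1% of all regions. Regions of the first kind ranked higher in the 4 CatVII Rxra WT lists (mean percentile 72.7 ± 16.7, SD over regions) than those of the second (54.6 ± 17.4). Among nearer distal regions the same ranks were 72.8 and 54.0.

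**Figure D4:**
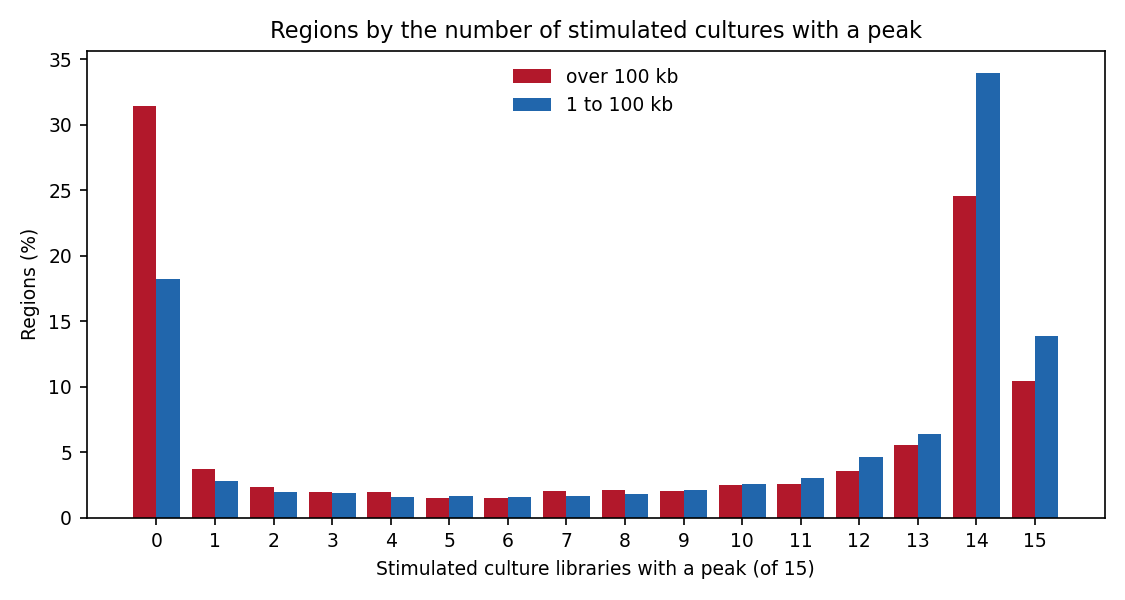
Percent of far regions (red) and nearer distal regions (blue) by the number of the 15 stimulated cultures in which a peak was called. Far regions exceed nearer distal ones at 0 libraries, 31.4% against 18.3%, and fall short of them at 14 and 15.

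Which far regions were found in culture differed by gene. Of the 37 near Sox9, 15 had a peak in all 14 cultures and 13 in none of 15. The shares of the 37 with a peak averaged 51.4% with BEL-treated corpses, 56.8% in Rxra cKO and 56.1% in Rxra WT with corpses, 1.35% in Rxra WT medium, 81.1% in CatVII Rxra cKO and 58.1% in AnaVI. Near Nfib it was 1 of 18 in all 14 and 11 in none, and the corpse cultures had 18.1% with BEL, 29.6% in Rxra cKO and 25% in Rxra WT, beside 83.3% in CatVII Rxra cKO. Maf (4 of 21 in all 14, 13 in none) and Gata3 (6 and 14 of 29) were like Nfib in this. Efna5, which encodes an ephrin ligand, stood at the other end with 12 of 18 in all 14 cultures and 2 in none, as did Cited2 (9 and 2 of 16), a transcriptional coregulator, and Myc (8 and 4 of 16), a driver of growth and proliferation. The best-ranked far region of Nfib, chr4:82200893-82202286, 222427 bp beyond its start, was the 1 found in all 14, with a peak in 24 of 30 libraries. The best-ranked of Sox9 was also in 24 of 30, that of Sox4 (253817 bp from its start, in an intron of 2610307P16Rik) in 25 and that of Foxc1 (148676 bp away in an intron of Gmds) in 26. Foxc1 encodes a forkhead factor of HFSC quiescence, and its region was the only 1 of these with a peak in medium, in 1 of 2 Rxra cKO libraries.

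Over whole lists, 31.8% of the 179 regions of the HFSC transcription factor list, Zfp36l1 included, had a peak in all 14 cultures and 39.7% in none. Of all far regions it was 34.6% and 31.4%. At signalling genes it was 45.4% and 24.0%, and at neuronal genes 20.2% and 39.3%. Of the 10 at HFSC surface and niche genes, 2 were found in all 14 cultures, both near Lrig1, and 5 in none, those of Lgr5 (a WNT coreceptor and stem cell marker), Postn, Fgf18 and 2 of Lrig1. The 6 at dead-cell clearance genes were those of Cd47 (2), Vav3 (2), Dock4 and Dock2. Dock4 and Dock2 encode proteins that act on the cytoskeleton during engulfment and migration. Both regions of Vav3, that of Dock4 and 1 of Cd47 had a peak in every BEL, Rxra cKO and Rxra WT corpse library, and that of Dock2 and the other of Cd47 in none. Of the 7 at retinoid and nuclear receptor genes, 2 of the 3 regions of Rdh10 (an enzyme of retinoic acid synthesis) were in all 14. So was that of Dhrs3 (a retinaldehyde reductase), and those of Cyp26b1 (an enzyme that degrades retinoic acid) were not. That of Nr3c1, a nuclear receptor gene, had no peak in any stimulated culture. Cyp26b1 chr6:84413020-84413964 was found with untreated corpses in 2 Rxra cKO libraries (n = 3) and 2 Rxra WT libraries (n = 4), and not with BEL (n = 4). The region of Wif1, a secreted WNT inhibitor, was in every Rxra cKO corpse library (n = 3) and in none of Rxra WT with BEL-treated or untreated corpses (n = 4 each). With AA+LPC+RA it had a peak in 0 of 2 libraries of either genotype. These counts are of all called peaks, in lists of unequal length. None of the 6 regions at clearance genes had a peak in medium, where few regions of any kind had one.

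Motif content differed between the far regions found in culture and those that were not. The AP-1 motif stood in 51.0% of far regions with a peak in all 14 cultures, against 15.6% of those with none in 15. The homeodomain motif went the other way, with 8.73% against 21.6%, as did the letters AGATAAG of GATA factors with 4.10% against 8.85%, whereas SOX differed less (16.6% against 19.6%). RUNX (TGTGGTT) was at 11.2% against 6.83%. Nearer distal regions showed the same order for AP-1 (44.5% against 13.4%) and homeodomain (6.07% against 14.3%). Library by library, far regions with an AP-1 motif were found at 71.8% ± 5.45 and those without at 43.8% ± 5.04 (SD over 14 cultures), higher with the motif in 14 of 14. In the 11 wild type and Rxra cKO libraries from skin the same values were 52.8% and 50.7%, higher in 6 of 11. Far regions with a homeodomain motif were found at 36.6% ± 5.12 and those without at 56.1% ± 5.19 of cultures, lower with it in 14 of 14, and in skin at 50.3% and 51.6%. The far regions with a GATA motif were found at 40.9% in culture, against 54.2% of those without. Motif, rank and GC go together in part, since regions in all 14 cultures held 48.1% GC and those in none 46.6%, and their parts were not tested.

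**Figure D5:**
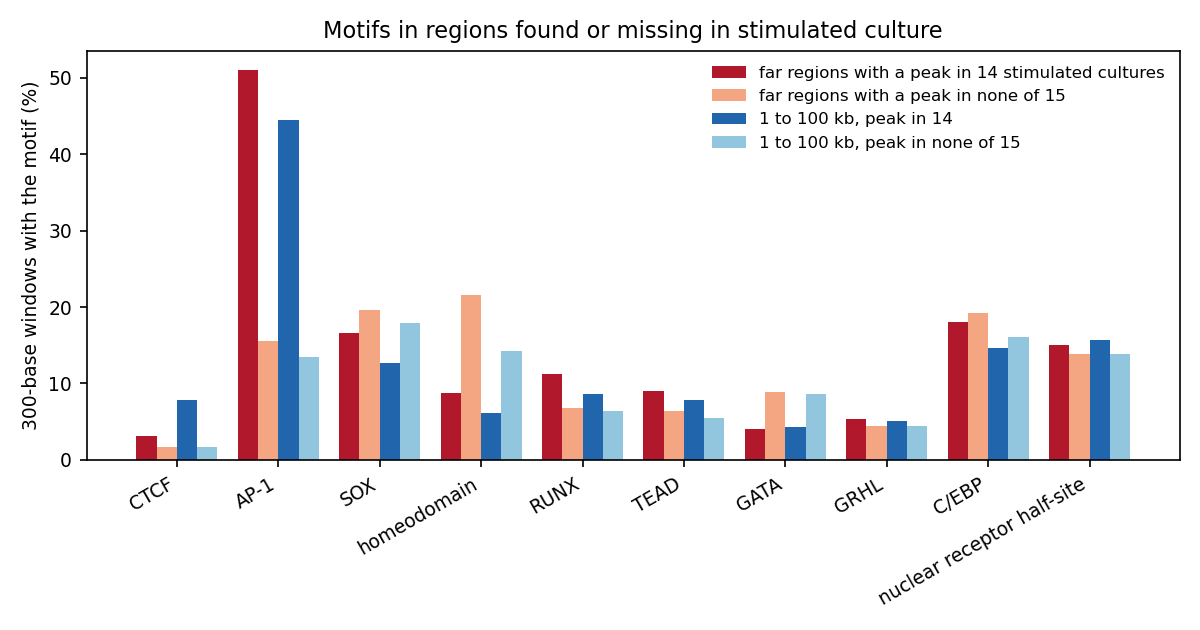
Percent of 300-base windows with each motif, for far regions with a peak in 14 stimulated cultures (red) or in none of 15 (light orange) and for nearer distal regions likewise (dark and light blue). AP-1 is at 51.0% and 15.6% in far regions, and homeodomain at 8.73% and 21.6%.

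As a set, far regions held the homeodomain motif in 14.3%, against 8.47% of nearer distal regions and 6.83% of all. AP-1 was in 34.1% against 32.1%, SOX in 18% against 14.4% and C/EBP in 18.9% against 15.2%. CTCF was in 2.54% against 6.17% (84 far regions). The half-site AGGTCA of nuclear receptors, to which RXR and its partners bind in pairs, stood in 14.1% of far regions, 15.3% of nearer distal and 13.6% of all regions. In far regions it was in 15.1% of those with a peak in all 14 cultures and 13.8% of those in none. Direct repeats, which hold the half-site themselves, were searched as exact letters around a spacer of any bases. GGTCA was followed by AGGTCA after 1 base (DR1) in 0.0605% of far regions, after 5 bases (DR5) in 0.0605% and after 2 bases (DR2) in 0. Of all regions, 0.0652% held DR1, 0.00687% DR5 and 0.0103% DR2, so such strict matches were rare everywhere. They are too few to tell whether far regions hold fewer or more repeats than other regions. Of the far regions, 733 (22.2%) held none of the motifs searched, and 23.6% of nearer distal regions. A match is a stretch of letters, not a bound site.

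Groups were then compared on the same number of best-ranked peaks per library, as many as the smallest library of a comparison had. No difference passed the adjustment over the 6 comparisons of its measure, and every p is two-sided.

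In late catagen compared with anagen, fewer far regions were among the strongest peaks. With 8046 peaks each, CatVII wild type libraries had a peak at 10.4% of far regions at the lowest, 14.1% at the median and 16.7% at the highest, against 20.7 and 24.2% in AnaVI wild type. The ranges did not overlap (difference −8.56 points, exact permutation p = 0.0357, the smallest possible, adjusted 0.107). Far minus nearer distal was 1.75 ± 0.651 points in CatVII wild type and 4.88 ± 1.26 in AnaVI wild type (n = 6 and 2, difference −3.13, exact permutation p = 0.0357, adjusted 0.107), and the difference was −0.650 against regions matched on GC. A peak in every CatVII and no AnaVI library was found at 31 far regions (0.937%, with 2.10% of all 29124 regions). The reverse held for 233 (7.04%, with 3.42% of all and 4.12% of nearer distal regions). The best-ranked of the 31 lay near Jun, Efna5 and Ahr (the aryl hydrocarbon receptor), and of the 233 near Nfe2l3 (a bZIP transcription factor), Tax1bp1 (an autophagy receptor) and Gramd2b. Among all called peaks the regions near Jun and Efna5 were in both AnaVI libraries as well, and that near Nfe2l3 in 3 of 6 CatVII libraries.

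Corpses against medium could be compared only at 4683 peaks in Rxra WT and 3976 in Rxra cKO. In Rxra WT, 8.31, 8.22, 6.89 and 7.41% of far regions had a peak with corpses, against 3.84 and 3.69% in medium (difference 3.94 points, exact permutation p = 0.0667, the smallest possible, adjusted 0.120). In Rxra cKO it was 6.08, 5.89 and 5.71% with corpses, against 3.87 and 2.57% in medium (difference 2.68, exact permutation p = 0.10, the smallest possible, adjusted 0.120). The ranges did not overlap in either genotype, and with both genotypes at 3976 peaks the change was 2.68 in Rxra cKO and 3.20 in Rxra WT, which differ by −0.521 points (exact permutation p = 0.562). Nearer distal regions rose more, as far minus nearer distal differed by −1.82 in Rxra WT and −1.07 in Rxra cKO (exact permutation p = 0.0667 and 0.10, adjusted 0.120 each). The share of a library's peaks beyond 100 kb differed by −17.3 in Rxra WT and −7.80 in Rxra cKO (exact permutation p = 0.0667 and 0.50, adjusted 0.133 and 0.60). A peak in every corpse and no medium library was found at 74 far regions in Rxra WT (2.24%, with 3.04% of all) and at 51 in Rxra cKO (1.54%, with 2.28% of all). The reverse held for 12 in Rxra WT (0.363%, with 0.350% of all) and 19 in Rxra cKO (0.574%, with 1.35% of all). The best-ranked of the 74 were an intronic region of 2210408I21Rik, 1 before Alkbh8 and 1 near Lrrc4c. Those of the 51 were the same region of 2210408I21Rik and 2 before Alkbh8, which is repeated sequence.

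Under corpses, the shares of far regions in Rxra cKO and Rxra WT cultures overlapped. With 70212 peaks each, a peak was called at 47.9, 47.2 and 46.6% in Rxra cKO and at 47.1, 50.7, 50.9 and 48.9% in Rxra WT (difference −2.16 points, exact permutation p = 0.143, adjusted 0.143). With all called peaks the difference was 1.98. A peak in every Rxra cKO and no Rxra WT corpse library was found at 27 far regions (0.816%, with 0.364% of all), and the reverse at 33 (0.998%, with 0.755% of all). Of the 27, the best-ranked lay near Ptprc (in an exon of the microRNA host gene Mir181a-1hg), Ntm (a neural adhesion molecule) and Ppp1r3b (a regulator of glycogen synthesis). The region near Ntm, chr9:30048225-30049671, lay 174523 bp upstream, between genes. Among all called peaks too it was present in 3 of 3 Rxra cKO corpse libraries and absent from all 4 of Rxra WT, and present in both Rxra cKO and neither Rxra WT library with AA+LPC+RA. In skin every CatVII Rxra cKO (n = 3) and CatVII wild type library (n = 6) had it. Of the 33, those lay near Lpp (an adhesion protein), Dach1 (a transcriptional repressor) and Klhl29, each in 2 of 3 Rxra cKO corpse libraries when all peaks were counted.

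In skin, the choice of members fixes the direction between genotypes, so the CatVII Rxra values are a description. At 40458 peaks each, 87 far regions (2.63%, with 2.53% of all) had no peak in any Rxra cKO and a peak in every Rxra WT library, and 0 the reverse (with 0.0137% of all). The best-ranked of the 87 were near Cxcl12 (a chemokine), Plpp3 (a lipid phosphatase) and Adamts9 (a secreted protease). Among all called peaks the region near Plpp3 had a peak in 1 and that near Adamts9 in 2 of the 3 CatVII Rxra cKO libraries. The region near Cxcl12, chr6:117367084-117368052, had no peak in 3 of 3 CatVII Rxra cKO libraries, but had 1 in 5 of 6 CatVII wild type libraries, in neither AnaVI library, and in every corpse culture of either genotype.

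BEL-treated corpses gave slightly higher shares than untreated ones. At 62278 peaks each these were 50.5, 50, 49.3 and 48.7% with BEL, against 45.0, 47.4, 48.3 and 46.9% without (difference 2.71 points, exact permutation p = 0.0286, the smallest possible, adjusted 0.107). The ranges did not overlap. The difference was 4.01 within libraries tagged NonPhago and 1.42 within those tagged Phago, and −0.408 with all called peaks. Nearer distal regions differed more, since far minus nearer distal was −16.6 ± 0.708 with BEL and −14.6 ± 0.993 without (SD, n = 4 each, difference −2.03, exact permutation p = 0.0286, adjusted 0.107), or −0.656 against regions matched on GC. A peak in every BEL and no untreated corpse library was found at 16 far regions (0.484%, with 0.865% of all), and the reverse at 8 (0.242%, with 0.0824% of all). Of the 16, the best-ranked lay near Fat1 (a protocadherin), Shq1 and Epas1 (a hypoxia-inducible factor). Among all called peaks these 3 had a peak in 2, 1 and 1 of the 4 Rxra WT libraries with untreated corpses. The best-ranked of the 8, near Lrrc4c, Alkbh8 and Csmd3, had a peak in 0 of 4 BEL libraries among all called peaks as well, against 4 of 4 with untreated corpses, and those near Lrrc4c and Alkbh8 held repeated words.

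Culture and skin, which also differ in batch, were compared within Rxra cKO. At 40458 peaks each, 35.7, 35.6 and 35% of far regions had a peak in Rxra cKO corpse cultures, against 77.9, 62.5 and 73.1% in CatVII Rxra cKO skin (difference −35.7 points, exact permutation p = 0.10, the smallest possible, adjusted 0.120). The difference was −34.8 without CatVII Rxra cKO replicate 3 and −24.9 with all called peaks. Far minus nearer distal was −10.4 ± 0.701 in the cultures and −0.269 ± 2.01 in skin (SD, n = 3 each, difference −10.1, exact permutation p = 0.10, adjusted 0.120). A peak in every culture and no skin library was found at 31 far regions (0.937%, with 0.927% of all). The reverse held for 735 (22.2%, with 13.3% of all and 16.7% of nearer distal regions). Sntb1, Aff3 and Kbtbd8 were nearest to the best-ranked of the 31, all with an AP-1 motif. Among all called peaks these had a peak in 1, 1 and 2 of the 3 CatVII Rxra cKO libraries, and that near Kbtbd8 in 2 of 2 AnaVI libraries. Of the 735, the best-ranked lay near Anapc15-ps, Trp63 and Atp23, and 1 of these 3, near Atp23, had an AP-1 motif. Among all called peaks those near Anapc15-ps and Atp23 had a peak in 0 of 3 Rxra cKO corpse libraries. The region near Trp63, chr16:25763670-25764699, lay 143518 bp beyond its start, 60 bp from the start of the non-coding gene Gm60110. Among all called peaks it was in every BEL library (n = 4), in 1 Rxra cKO corpse library (n = 3) and in 3 Rxra WT corpse libraries (n = 4), and in every library from skin.

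The share of a library's own peaks that lie beyond 100 kb does not depend on the 4 CatVII Rxra WT lists. With corpses it was 18.1, 17.6 and 16.9% in Rxra cKO, against 16, 14.7, 14.7 and 14.8% in Rxra WT at 70212 peaks each (difference 2.51 points, exact permutation p = 0.0286, the smallest possible, adjusted 0.0857). With any 1 of the 7 libraries left out the difference was 2.23 to 2.84, and the smallest p of the smaller designs is above 0.05. Over all called peaks, as a description with no test, the share was 20, 17.7 and 20% in CatVII Rxra cKO skin. In CatVII Rxra WT skin it was 14.9, 15, 15.3 and 14.2%. These lists were not of equal length, and the share depended on it. Cut to 40458 peaks, the length of replicate 1, CatVII Rxra cKO replicates 2 and 3 gave 16.8 and 14.1%. The gap between genotypes in skin was not tested at equal length. With AA+LPC+RA the share over all called peaks was 16.4 and 15.8% in Rxra cKO and 14.9 and 13.6% in Rxra WT. In medium it was 14.1 and 30.7% in Rxra cKO and 26.5 and 33.4% in Rxra WT, where 6.91 to 20.6% of far peaks lay on the far regions. Most of the far peaks in cultures lay outside the far regions, and this held in most skin libraries too. In skin 16.3 to 33.2% of far peaks lay on far regions in CatVII Rxra cKO, 25.8 to 60.6% in CatVII wild type and 49.5 and 31.9% in AnaVI wild type. List lengths were not made equal for these values. In Rxra cKO corpse cultures 9.74, 13.6 and 9.59% of far peaks lay on one, and 29.3, 36.4 and 29.5% on any of the 111458 merged regions, against 16.4, 17.9, 13.4 and 12.8% and 43.5, 47.0, 39.8 and 37.4% in Rxra WT. The numbers of far peaks were 23541, 13487 and 23956 in Rxra cKO and 11253, 10850, 15601 and 17751 in Rxra WT. BEL-treated and untreated corpses differed little at 62278 peaks, with 13.7, 13.9, 13.9 and 13.8% against 15.6, 14, 14.3 and 14.5% (difference −0.775, exact permutation p = 0.0286, adjusted 0.0857).

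Repeated sequence stood at the top of the far regions. Of the 10 best-ranked, those near Rab10 and Alkbh8 had a median of 85.5 and 103 other copies of their 25-base words in the genome. Of the pair near Ube2e2, chr14:3053088-3053983 had 86.5 and chr14:3050230-3052994 had 2, below the limit of 10 used here. Those nearest G6pd2, Nxph1 and ENSMUSG00000144274 held mitochondrial words in 60.5, 55.4 and 82.2% of positions. A repeated window, with a median of 10 or more other copies, was found at 98 far regions (2.96%), 120 nearer distal regions (0.764%) and 51 promoter regions (0.505%). All 26 regions before Alkbh8 were repeated and lay within 0.0369 Mb near the start of chromosome 9. On average 85.6% of them had a peak with BEL-treated corpses and 97.1% with untreated corpses in Rxra WT. In medium they had 61.5% in Rxra cKO and 69.2% in Rxra WT, where far regions as a whole had 3.52 and 3.82%. Reads of such sequence cannot be placed with certainty, and these regions count in all shares above unless it is said otherwise.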

How the data were processed

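ATAC-seq libraries of mouse HFSCs were aligned by the authors to mm39 with BWA 0.7.18, duplicates were removed with SAMtools 1.17, and narrow peaks were called per library with MACS3 3.0.0 without a control. Each deposited list gives per peak the position, the −log10 p and −log10 q values the authors' caller assigned at the summit, a fold enrichment over local background, an integer display score and the summit's offset. Read depth is unknown, so a called peak is the measure and no interval on counts was computed.

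Peaks of chromosomes 1 to 19 were merged (overlap of 1 bp or more) and set against 173824 protein-coding transcript starts of GENCODE M39 on GRCm39, whose chromosome lengths matched the peaks. A region counted as present where a called peak overlapped it. For comparisons between groups, each library was cut to its best peaks by −log10 p, as many as its comparison's smallest library had. Shares were compared with exact permutation tests over libraries and exact sign-flip tests, two-sided at 0.05, with Benjamini-Hochberg adjustment over 6 comparisons per measure. Windows of 300 bases around summits served for GC, motifs and copy counts of 25-base words (10 or more: repeated). The scripts (Python 3.11.15, NumPy 2.4.6, SciPy 1.17.1) were tested on simulated data. The far regions, gene lists and motifs were chosen with earlier results of these data known. Regions were named by fixed rules: the 5 farthest, the 10 best-ranked, those in most libraries, the 6 fullest gaps, up to 6 best-ranked per HFSC, clearance and retinoid list, up to 3 best-ranked per group comparison and direction, those at the limit, and up to 4 with a CTCF motif or none. Other genes were chosen after their values were seen. Alternatives were other distances, list lengths, −log10 q of 5 or more, summits inside regions, repeats left out, a replicate block and each library left out. Added after seeing the data were matching on rank or GC, chromosomes 4 to 19 and the stored Phago and NonPhago tags.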

Additional observations from a re-analysis of the deposited data

Results flagged for a closer look

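Among all called peaks, 14.8% of those of Corpses Rxra WT replicate 2 lay over 100 kb from a protein-coding start, and the other 3 libraries of that group lay between 15.9 and 16%. The gap was 0.888 of the group's range. Chance sets a sample apart in this way in about 1 in 20 groups, and 10 pairs of a group and a measure were examined. With 70212 best-ranked peaks per library, the 4 values were 16, 14.7, 14.7 and 14.8%, and replicate 1 was then the one apart.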

How the results depend on the processing

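Of the alternatives other than leaving out a library, 142 left direction and call as they were, 24 lost the call, 7 gained it, 6 turned the direction and 7 moved a count. The causes were not tested, except that smaller designs cannot reach p below 0.05. The number of far regions was 6132 beyond 50 kb, 1456 beyond 200 kb, 133 from starts of all genes, 2022 with −log10 q of 5 or more, and 3353 to 5838 with 1 list left out (5838 without CatVII Rxra WT replicate 1). The stimulated cultures' difference from nearer distal regions held its call throughout, from −15.4 beyond 200 kb to −3.37 at equal list length, and −14.5 to −13.6 with 1 library left out. That of CatVII wild type was 1.95 beyond 50 kb, 1.89 beyond 200 kb, 1.75 at equal length, 2.71 matched on rank and 2.88 matched on GC (exact permutation p = 0.0312 each), −0.318 without repeated regions (p = 0.562, exact), and 0.625 to 1.13 with 1 library left out.

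With all called peaks, the difference in the share of far regions was −18.5 for CatVII against AnaVI, 1.98 for Rxra cKO against Rxra WT under corpses and −0.408 for BEL-treated against untreated corpses. With lists 2 times shorter it was −1.87 for the genotypes (exact permutation p = 0.0286) and 0.990 for BEL, and beyond 200 kb 1.49 for BEL. The BEL difference was 4.01 within NonPhago and 1.42 within Phago libraries (2 against 2 each, exact permutation p = 0.333, the smallest possible). Far minus nearer distal differed between CatVII and AnaVI by −2.65 with all peaks and −0.650 matched on GC. Between BEL-treated and untreated corpses it was −1.24 beyond 50 kb, −1.58 by summits, −0.656 matched on GC, −2.14 within NonPhago and −1.92 within Phago. For CatVII against AnaVI the share of far peaks differed by −4.04 in the main comparison at 8046 peaks (exact permutation p = 0.214, adjusted 0.321). On chromosomes 4 to 19, an alternative added after seeing the data, the share of far peaks differed by −6.57 (exact permutation p = 0.0357). It was 2.34 with lists 2 times shorter and 1.71 beyond 200 kb for the genotypes under corpses (exact permutation p = 0.0571 each). For BEL it was −1.37 with all peaks, −0.826 beyond 50 kb, −0.971 within NonPhago and −0.579 within Phago. For Rxra cKO corpse cultures against CatVII Rxra cKO it was −0.732 in the main comparison at 40458 peaks (exact permutation p = 0.80, adjusted 0.80). There it turned to 2.43 with lists 2 times shorter, 0.0189 beyond 50 kb and 1.33 on chromosomes 4 to 19. Regions in every CatVII Rxra cKO and no corpse library numbered 357 with lists 2 times shorter, and the reverse 83, or 18 with all called peaks.

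Same-numbered libraries did not deviate together (correlations of −0.0429 to 0.0982), so the numbers were not taken to pair them. With a replicate block the shares differed by −10.1 for CatVII against AnaVI and 2.71 for BEL, far minus nearer distal by −3.78 and −2.03, and far peaks by 2.44 for the genotypes under corpses and −0.775 for BEL, and none of these could reach p below 0.05.

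With 1 library left out, the share of far regions differed by −10.3 (without AnaVI replicate 1) to −6.78 (without replicate 2) for CatVII against AnaVI, 2.07 to 3.17 for BEL, −2.93 to −1.65 for the genotypes, 3.74 to 4.22 and 2.03 to 3.33 for corpses against medium in Rxra WT and Rxra cKO, and −40.1 to −32.3 for culture against skin. Far minus nearer distal was −4.02 to −2.24, −2.35 to −1.56, 0.589 to 1.48, −2.26 to −1.37, −1.23 to −0.919 and −10.8 to −8.94 in that order of comparisons. Far peaks were −5.76 to −2.32, −0.982 to −0.441, 2.23 to 2.84, −20.6 to −14.0, −17.4 to 1.79 (1.79 without Medium Rxra cKO replicate 2) and −2.15 to 0.774 (0.774 without CatVII Rxra cKO replicate 1). The filter on repeats was not run for far peaks. Peak lists without read counts limit every share to what each library's depth let the caller find.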

Other observations

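The far regions were spread unevenly over the chromosomes. Chromosome 13 held 304, or 21.2% of its regions with a peak in all 4 CatVII Rxra WT lists, and 6.12 per Mb of sequence lying over 100 kb from a protein-coding start. Over chromosomes 1 to 19 the density was 3.36 per Mb, with 4.58 on chromosome 11 and 2.22 on chromosome 14. Per chromosome the share of such regions that were far was lowest on chromosome 7 at 6.26%.

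Some far regions were among the strongest peaks of the sparse medium libraries. At 3976 peaks per library, those near Rnf152 (chr1:105414545-105415441), Arid1b (chr17:5239818-5240934, in an intron of Arid1b itself) and Tprg1 (chr16:24877434-24878741) had a peak in both Rxra cKO medium libraries and in no Rxra cKO corpse library. Arid1b encodes a subunit of a chromatin remodelling complex. Among all called peaks the first 2 were found in 30 of the other 30 libraries and that near Tprg1 in 29, so what differed was their rank. The median word of each of the 3 had 0 other copies, and those of Arid1b and Tprg1 lay 247 and 31 bp from the start of a non-coding gene. In Rxra WT the regions near Fggy, Insig2 and Dlgap2 behaved likewise at 4683 peaks and were found in 28, 27 and 28 of 30 libraries, and those near Insig2 and Dlgap2 held words with a median of 1874 and 6 other copies.

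The region near Tyrp1, whose product acts in pigment cells, was found in 12 of 30 libraries, namely 3 of 3 CatVII Rxra cKO, 5 of 6 CatVII and 2 of 2 AnaVI wild type libraries and 2 of 3 Rxra cKO corpse cultures. Of 8 melanocyte marker genes, 0 to 5 had a promoter peak in a library, and 6 far regions were nearest to 3 of these genes. The wild type sort gated out cells with CD117, which melanocytes carry. The part of other cells in this was not tested.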
